A study of Mus musculus with 2 samples.

Results

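Microglia that were not dividing were picked out of CD45+ cells from intracranial tumours of the murine glioma line CT-2A, in 1 library from Glut5 KO mice and 1 library from wildtype mice. A barcode counted as a member when it had at least 300 genes, under 10% mitochondrial transcripts and at least 3 unique transcript tags (UMIs) of the microglial genes P2ry12, Tmem119, Sall1, Gpr34, Olfml3 and Crybb1 together. The sum of those 6 also had to exceed that of the monocyte and macrophage genes Ccr2, Ly6c2, Ms4a7 and Chil3, with no UMI of Cd3e, Cd3d or Cd3g and at most 2 UMIs of the division genes Mki67, Top2a, Cdk1, Birc5 and Ube2c. The rule found 1136 members among 12112 kept Glut5 KO barcodes and 1431 among 11473 kept wildtype barcodes, 2567 of 23585 in all. Both groups carried CT-2A tumours in the brain for 14 days, and CD45+ cells were taken with magnetic beads, with 16000 cells loaded for each library. The labels call the tested genotype Glut5 KO where the design text says knockdown, and the labels are followed here. The sources used here do not give the deleted exons, strain, age or sex. With 1 library per genotype no difference has a replicate check, genotype and library cannot be told apart, and every bracket is an exact 95% interval that covers counting error only.

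Microglia are the resident macrophages of the brain. They settle there in the embryo, renew themselves locally and depend on CSF1R and TGF-beta signalling. In the steady state they survey the tissue through purine and chemokine receptors such as P2RY12 and CX3CR1. In tumours and in neurodegeneration they can lower this homeostatic programme and raise genes of lysosomes, lipid handling and antigen presentation, many of them under the receptor TREM2. Glut5, encoded by Slc2a5, is a facilitative transporter of the GLUT family with high selectivity for fructose, and in the brain its transcript is known mainly from microglia.

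Not every member matched the label. In the Glut5 KO library 28 members, and in the wildtype library 44, had at least 10 UMIs of 7 fibroblast and tumour cell markers such as Col1a1 and Col3a1, a limit chosen after seeing the data. These barcodes, called stromal below, had 882 and 524 summed CPM (counts per 1e6 UMIs) of the 22 homeostatic receptor genes, against 6879 and 5754 CPM in the members without them. They also carried 11041 and 11788 CPM of 19 monocyte and macrophage markers, against 932 and 1051 CPM in the members without them. Those markers include Vim, Fn1 and Tgfbi. The rule's Ccr2, Ly6c2, Ms4a7 and Chil3 went the other way, at 80.6 and 3.22 CPM against 169 and 246 CPM. Nearly all stromal barcodes with a sex call were female, 23 in Glut5 KO and 40 in wildtype, against 1 and 0 male. Members with a UMI of Ccr2, Ly6c2, Ms4a7 or Chil3 made up 31.3% in Glut5 KO [28.6 to 34.1] and 36.97% in wildtype [34.5 to 39.5]. At least 10 UMIs of the 19 monocyte and macrophage markers were found in 23.9% and 28.4% of members, and at least 10 of the 10 border macrophage markers in 1.06% and 4.12%. For comparison, markers of neurons and of mast cells reached 10 UMIs in 0 members of either library, and those of neutrophils in 7 Glut5 KO members and 0 wildtype members. Some barcode sequences, 188 in number, occurred in both libraries. They included 18 Glut5 KO and 26 wildtype members, and 0 barcodes were members in both.

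Members with more marker UMIs had more of the homeostatic receptor genes and less of the listed monocyte and macrophage markers. Members with 3 or 4 marker UMIs, just inside the limit, were shallow cells, with medians of 1838.5 UMIs in Glut5 KO and 2765 in wildtype. They were 17.1% of Glut5 KO members [14.9 to 19.4] and 12.2% of wildtype members [10.6 to 14.0]. Their summed level of homeostatic receptor genes was 2962 CPM in Glut5 KO and 2591 CPM in wildtype, and that of monocyte and macrophage markers was 4345 and 4167 CPM. In members with at least 20 marker UMIs the receptor genes stood at 7746 CPM in Glut5 KO and 6969 CPM in wildtype. The monocyte and macrophage markers stood at 802 and 687 CPM there. Those members were deeper cells, with medians of 11602 UMIs in Glut5 KO and 11807.5 in wildtype. The fibroblast and tumour list also dropped, from 1471 and 1334 CPM in the lowest band to 253 and 0.294 CPM in the highest. Ccr2, Ly6c2, Ms4a7 and Chil3, which the rule holds below each cell's marker sum, did not drop. They stood at 124 and 105 CPM in the lowest band and at 139 and 182 CPM in the highest. With 10 to 19 marker UMIs they stood at 229 and 352 CPM. Barcodes just outside the limit, with 2 marker UMIs, numbered 161 in Glut5 KO and 127 in wildtype, and their receptor genes stood at 2403 and 1890 CPM. The gene sums that define these bands also belong to the rule, so the bands describe how the members vary and test nothing.

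**Figure D1:**
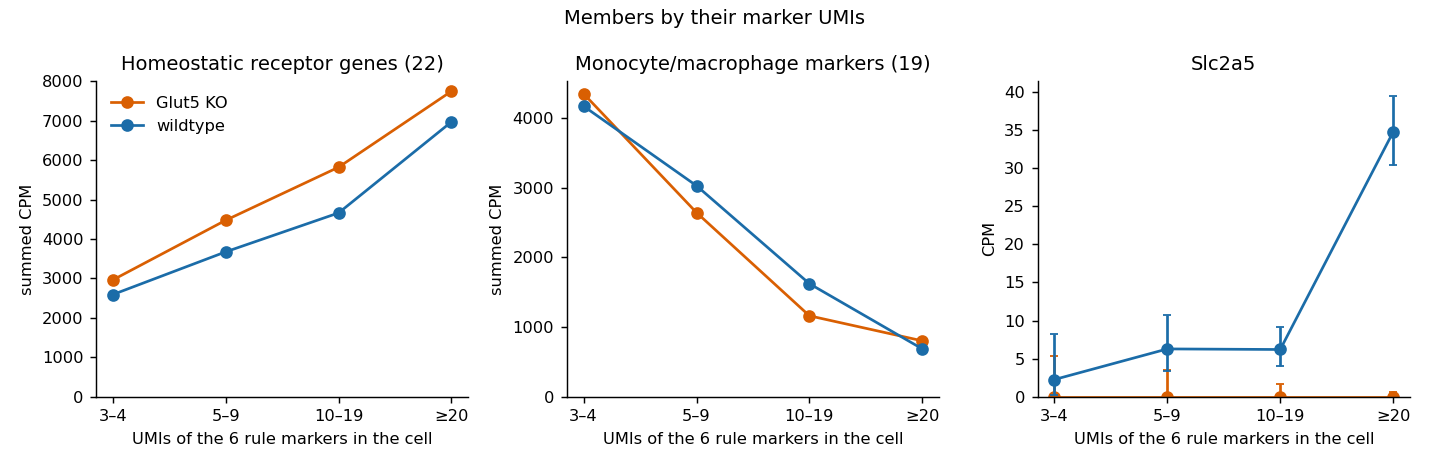
Summed CPM (y axis) of 22 homeostatic receptor genes, 19 monocyte and macrophage markers and Slc2a5, in members grouped by their UMIs of the 6 rule markers (x axis), Glut5 KO orange and wildtype blue; bars on Slc2a5 are 95% Poisson intervals. Receptor genes climbed and the 19 monocyte and macrophage markers dropped from the lowest to the highest band in both libraries. Slc2a5 stood at 34.7 CPM in the highest wildtype band.

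Members held 10126274 UMIs in Glut5 KO (median 7764 per cell) and 13776063 in wildtype (median 8989), in libraries of 12165 and 11495 barcodes. Cells with Xist UMIs and no UMI of 4 Y-linked genes were called female, and the reverse male. Both libraries held cells of both sexes, where the titles speak of 1 mouse for each. Members with a call were 244 male and 431 female in Glut5 KO, and 376 male and 494 female in wildtype. The mix of the whole library differed, with 43.2% male in Glut5 KO and 55.6% male in wildtype among sexed barcodes. Shares, many list medians and some single genes are therefore also given within male and within female cells, though sex and animal cannot be told apart. Plasma cell transcripts, which microglia do not make, came to 153 CPM in Glut5 KO members and 14.1 CPM in wildtype members, against 1727 and 46.7 CPM in the other barcodes, and their part in any result was not tested. Other marker lists summed, in Glut5 KO and wildtype members, to 32.4 and 19.02 CPM for T cells, 69.8 and 40.7 for NK cells, 195 and 170 for B cells, 252 and 218 for dendritic cells, and 80.6 and 51.0 for plasmacytoid dendritic cells. Neutrophil markers summed to 193 and 111 CPM, oligodendrocyte markers to 119 and 186, astrocyte markers to 111 and 70.8, endothelial and mural markers to 22.5 and 27.8, and red cell markers to 0.691 and 25.1. Mast cell and neuron markers stood between 1.02 and 5.08 CPM, and the fibroblast and tumour list at 432 and 431 CPM. The similar B cell sums were mostly Ighm, the IgM heavy chain, at 98.0 CPM in Glut5 KO and 128 CPM in wildtype. The other B cell genes differed more: Igkc, the kappa light chain, had 38.1 and 1.38 CPM, the transcription factor gene Ebf1 8.79 and 1.96 CPM, and Cd79a, of the B cell receptor, 122 and 2 UMIs, a log2 ratio of 6.06 [4.49 to 9.44]. These 3 of 5 measured B cell genes were past 1.5-fold higher, with a list median of 2.15, and 3 of 4 astrocyte genes were, with a median of 1.03. Their part in any result was not tested. Of the monocyte list's measured genes, 4 of 15 were above 0, with a median log2 ratio of −0.28 that was 0.19 without stromal barcodes.

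The targeted gene came first. Slc2a5 (ENSMUSG00000028976, chromosome 4, 150119283 to 150144169, GRCm38) had 0 UMIs in Glut5 KO members and 276 UMIs in wildtype members. The wildtype level was 20.03 CPM [17.7 to 22.5], and in Glut5 KO a count of 0 allows up to 0.296 CPM, so the transcript was at least 67.6-fold lower. In wildtype, 14.2% of members had a UMI of it, and no cell had more than 4. With cells thinned to 1500 UMIs, 0 of 1027 Glut5 KO members and 4.13% of 1356 wildtype members had one. T cell barcodes of wildtype gave 0.122% after thinning, which is 1 of 818 (median 13682 UMIs before thinning, against 8989 in members). Before thinning they had 11 UMIs of Slc2a5, or 0.888 CPM [0.443 to 1.59]. They also carried Olfml3 at 112 CPM, so they are not a background free of microglial transcripts.

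Among wildtype members the transporter was uneven. Its level was 2.27 CPM [0.275 to 8.19] in members with 3 or 4 marker UMIs, 6.28 with 5 to 9, 6.21 with 10 to 19, and 34.7 CPM [30.4 to 39.5] with at least 20. Stromal wildtype members had 0 UMIs of it. Female wildtype members had 23.5 CPM [19.5 to 27.9] and male ones 15.3 CPM [12.1 to 19.2]. Wildtype members without a Ccr2, Ly6c2, Ms4a7 or Chil3 UMI had 32.5 CPM, above the interval for all members. Dividing microglia, which met the same rule but had more than 2 division UMIs, had 9.07 CPM [7.11 to 11.4], and monocyte and macrophage barcodes had 7 UMIs or 0.147 CPM [0.0592 to 0.303]. In the Glut5 KO library these 2 classes had 0 UMIs each. Reads of this kit lie near transcript starts, and the sources used here do not say which exons were deleted.

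**Figure D2:**
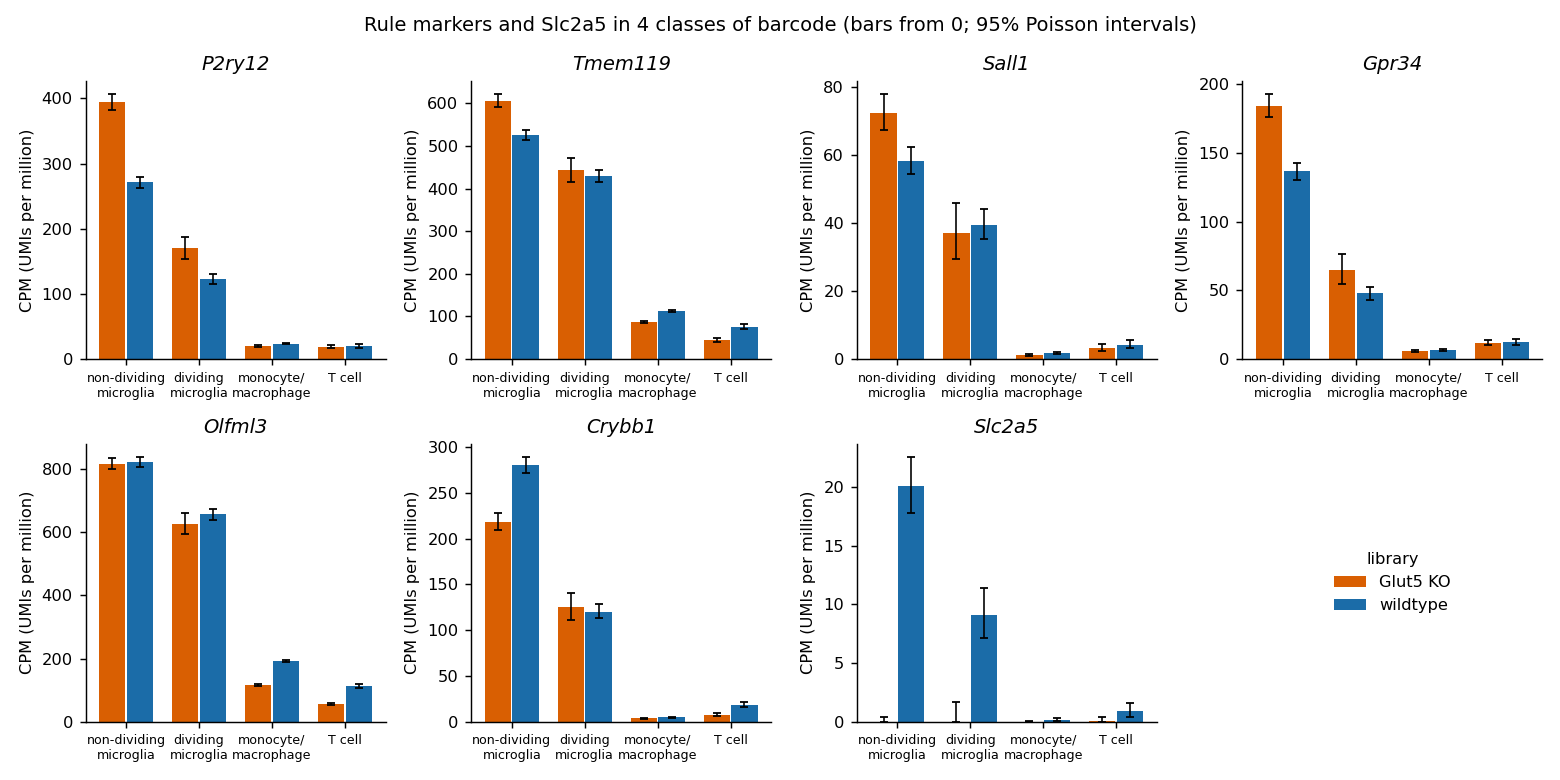
CPM (y axis, from 0) of the 6 rule markers and Slc2a5 in 4 classes of barcode, Glut5 KO orange on the left of each pair and wildtype blue, with 95% Poisson intervals. Slc2a5 had no bar in Glut5 KO microglia, and in wildtype stood at 20.03 CPM in non-dividing microglia against 0.147 CPM in monocyte and macrophage barcodes; the 6 markers chose the members, so their heights are a description.

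The 6 markers did not all differ in the same direction between Glut5 KO and wildtype members. The rule admitted members by the sum of these 6, in libraries of unequal depth, so their levels are a description. P2ry12, the purine receptor that steers microglial processes, stood at 394 CPM in Glut5 KO [382 to 406] and 271 CPM in wildtype [262 to 280]. Gpr34, a lysophospholipid receptor, stood at 184 and 137 CPM, the surface protein gene Tmem119 at 606 and 525, and Sall1, the transcription factor that holds microglial identity, at 72.5 and 58.4. The secreted Olfml3 was level at 817 and 822 CPM. The crystallin gene Crybb1 went the other way, with 218 CPM in Glut5 KO [209 to 228] and 280 CPM in wildtype [272 to 289].

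Members were a smaller part of the Glut5 KO library. They made up 9.38% of kept barcodes in Glut5 KO [8.87 to 9.91] and 12.5% in wildtype [11.9 to 13.1], a ratio of 0.752 [0.695 to 0.813]. In female cells the shares were 12.4% and 17.1% (ratio 0.726 [0.637 to 0.828]). In male cells they were 9.22% and 10.4% (ratio 0.888 [0.753 to 1.05]), a difference within counting error. A limit of 3 UMIs is easier to reach in deep cells, and wildtype cells were deeper. Every barcode was then thinned to 2000 UMIs and the rule applied to what remained, with 2674 and 1067 shallower barcodes left out. Members were 8.46% of 9438 Glut5 KO barcodes and 10.3% of 10406 wildtype barcodes. Only 703 of these 798 Glut5 KO and 817 of these 1072 wildtype barcodes were members by the main rule. Thinning also removes monocyte, Cd3 and division UMIs, so it let in barcodes that the main rule turned away. Shares are of what the CD45 beads held back, so fewer microglia and more of other cells cannot be told apart.

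Dividing microglia differed more. There were 142 in Glut5 KO and 507 in wildtype, which is 11.1% [9.44 to 12.96] and 26.2% [24.2 to 28.2] of all microglia by these rules, a ratio of 0.425 [0.350 to 0.513]. The shares were 9.96% and 35.3% in male cells, and 15.5% and 23.3% in female cells. After thinning to 2000 UMIs they were 6.34% and 10.2%, a ratio of 0.620 [0.442 to 0.861]. Thinning removes division UMIs too, so dividing cells can count as non-dividing there. Dividing cells carried the 6 markers at lower levels, with P2ry12 at 170 CPM in Glut5 KO and 123 CPM in wildtype, and median depths of 15414 and 16015 UMIs.

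Set against all other kept barcodes, members shared a profile well beyond the genes of the rule. Of 3387 genes found in at least 25% of members of each library, 125 (3.69%) were at least 2-fold higher in members than in other barcodes in both libraries, with 10 CPM added. The same cells were chosen by their own transcripts, so these ratios are descriptions. The other barcodes were not alike between the libraries. They held 142 dividing microglia in Glut5 KO and 507 in wildtype, and carried Tmem119 at 88.5 and 136 CPM. The size of a ratio against them is therefore not comparable between the libraries. Sparc, a matrix protein that modulates adhesion, led with 1394 CPM in Glut5 KO members against 70.7 CPM in other Glut5 KO barcodes, and 1154 against 107 CPM in wildtype, log2 ratios of 4.12 and 3.32. Serpine2, a secreted protease inhibitor, had 254 against 13.5 CPM in Glut5 KO and 220 against 15.4 CPM in wildtype. Timp2, which inhibits metalloproteinases, was also in this secreted group at log2 ratios of 2.48 and 2.07.

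Signals and receptors formed the next group. Csf1, a growth factor for macrophages and microglia, had 201 CPM in Glut5 KO members against 23.4 CPM elsewhere, and 185 against 21.4 CPM in wildtype. The cytokine gene Il1a had log2 ratios of 3.19 in Glut5 KO and 2.53 in wildtype. Among receptors, Hcar2, which senses hydroxycarboxylic acids, had 2.999 and 2.469, Gpr84, which senses medium-chain fatty acids, 2.677 and 2.299, and Trem2, the lipid-sensing receptor of disease-associated microglia, 2.66 and 2.06. Plxdc2, the adhesion receptor gene Adgrg1 and the lectin gene Siglech were between 2.04 and 3.09 in both libraries.

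Enzymes and transporters completed the list. Ctsd, a lysosomal protease, had 9291 CPM in Glut5 KO members against 1125 CPM in other barcodes, and 6370 against 1244 CPM in wildtype. Cst7, a protease inhibitor, had log2 ratios of 3.21 and 2.86. Ldhb, a subunit of lactate dehydrogenase, had 2.96 and 2.38, and Ltc4s, which makes leukotriene C4, had 2.72 and 2.07. Slco2b1, an organic anion transporter, and Slc1a3, a glutamate transporter, had 2.80 and 2.49 in Glut5 KO and 2.13 and 2.06 in wildtype. Phyhd1, Pmp22, Nav3, Syngr1, Cryba4, Egr1, Capn3 and Gal3st4 were the others among the 25 leaders, between 2.05 and 3.29 in both libraries. Dividing microglia had less of each of these 25 genes, for example 739 CPM of Sparc in Glut5 KO and 581 CPM in wildtype.

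Among the 10 genes lowest in members, Plac8, a gene of monocytes, had 78.3 CPM in Glut5 KO members against 888 CPM in other barcodes, and 67.4 against 689 CPM in wildtype. The others, Napsa, Ly6i, Slfn1, Klrk1, Gpr132, Ifi205, Crip1, Adgre5 and Traf1, had log2 ratios between −2.81 and −1.86. By list, 9 of 20 measured homeostatic receptors, 10 of 15 homeostatic secreted proteins and enzymes, and 12 of 28 disease-associated microglia genes were at least 2-fold higher in members in both libraries, and 0, 0 and 1 were 2-fold lower. Of all 9695 genes with at least 100 UMIs, 2.14% were 2-fold higher and 2.41% 2-fold lower in both libraries. The homeostatic and disease-associated lists had median log2 ratios of 1.15, 2.005 and 1.09 in Glut5 KO and 0.79, 1.47 and 0.83 in wildtype. Over those 9695 genes the medians were −0.06 and −0.04. Lysosomal genes had medians of 0.91 in Glut5 KO and 0.54 in wildtype, and complement genes 1.19 and 0.60. MHC class II genes, which display peptides to CD4 T cells, were lower in members, at −1.41 in Glut5 KO and −0.70 in wildtype.

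Glut5 KO and wildtype members were then compared gene by gene. A gene was called when its CPM, summed over members, differed at least 1.5-fold, among 9695 genes with at least 100 UMIs. In Glut5 KO members 168 genes (1.73%) were higher and 365 (3.76%) lower, and the median gene stood at −0.05 on the log2 scale. The same way in male and female cells, by a ratio of at least 5 to 4, went 114 higher and 259 lower genes. Those cells are among the members that made the calls, so this agreement is partly built in. In monocyte and macrophage barcodes 80 of the higher and 85 of the lower genes were past 1.5-fold the same way. The share of all genes past 1.5-fold in those barcodes is not given here. Chromosome 4, which holds Slc2a5, carried 7.74% of the higher and 9.04% of the lower genes, against 6.17% of all genes tested.

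Genes of at least 50 CPM that differed the same way in both sexes were ranked after markers of other cell types and immunoglobulin genes were left out. At the higher end Dcstamp, a membrane protein needed for macrophage fusion, led. It had 54.3 CPM in Glut5 KO [49.9 to 59.0] and 3.85 CPM in wildtype [2.88 to 5.03], a log2 ratio of 3.81 [3.41 to 4.25], with 3.84 in monocyte and macrophage barcodes. The acute-phase gene Saa3 had 53.5 CPM in Glut5 KO and 14.5 CPM in wildtype (1.88), and Fam167b 119 and 42.2 CPM (1.498). Marcksl1, an actin regulator, had 451 and 196 CPM (1.205), with 1.95 in male and 0.74 in female cells. C3, the central complement protein, had 84.8 CPM in Glut5 KO and 43.8 CPM in wildtype (0.95 [0.80 to 1.11]), and C4b, which acts upstream of it, had 179 and 107 CPM (0.74). The glucocorticoid-responsive chaperone gene Fkbp5 stood at 0.92, the transcription factor gene Zbtb20 at 0.89 and Tlr7, a sensor of single-stranded RNA, at 0.64. Laptm4b, Arl4c, Aig1, Rnaset2a, Cd37 and Cmss1 stood between 0.61 and 1.002. Of these 15 genes, 9 were past 1.5-fold higher in monocyte and macrophage barcodes too. The share of all genes past 1.5-fold there is not given, so this count has no background to set it against.

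At the lower end of the same ranking, in which Slc2a5 was below the limit of 50 CPM, stood Cep85, a centrosome gene. It had 5.53 CPM in Glut5 KO and 56.4 CPM in wildtype, a log2 ratio of −3.34 [−3.77 to −2.96]. Sh3bgrl3, a small thioredoxin-like protein, had 557 and 1400 CPM (−1.33), the microtubule destabiliser gene Stmn1 44.9 and 97.9 CPM (−1.12), and Ndufs5, which belongs to complex I of the respiratory chain, 74.9 and 157 CPM (−1.07). These 4 lie on chromosome 4, as do Fam167b and Marcksl1, and 3 of them (Cep85, Sh3bgrl3 and Ndufs5) stood between −3.70 and −0.98 in dividing microglia and in monocyte and macrophage barcodes as well. Cfp, which stabilises the complement convertase, had 21.5 CPM in Glut5 KO and 65.2 CPM in wildtype (−1.60), with −2.77 in male and −0.76 in female cells. The secreted Wfdc17 had 168 and 356 CPM (−1.08), and the replication helicase gene Mcm6 27.2 and 56.04 CPM (−1.04). Plbd1, Asb2, Polr2k and the actin-severing Gsn stood between −0.97 and −0.87.

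A few of these lower genes changed when stromal barcodes, or members with a monocyte gene UMI, were left out, and the cause was not tested. Members with a monocyte gene UMI were 31.3% of Glut5 KO and 36.97% of wildtype members. Igfbp3, which binds insulin-like growth factors, had 19.2 CPM in Glut5 KO and 60.1 CPM in wildtype (−1.65), found in 2.201% and 3.284% of members. Without the stromal barcodes its log2 ratio was 0.04. Acp5, an acid phosphatase of osteoclasts and macrophages, had 82.9 CPM in Glut5 KO and 227 CPM in wildtype (−1.45), and 0.35 without members that had a Ccr2, Ly6c2, Ms4a7 or Chil3 UMI. Zmynd15 stood at −1.21 over all members and −0.01 after the same removal, and the lectin receptor gene Clec4a1 at −0.90 and 0.18. Among the higher genes, C3, C4b, Aig1 and Cd37 came to 0.55, 0.54, 0.49 and 0.38, which is under 1.5-fold. Dcstamp, Fam167b, Cep85 and Sh3bgrl3 had log2 ratios of 3.12, 1.32, −3.20 and −1.14 there.

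**Figure D3:**
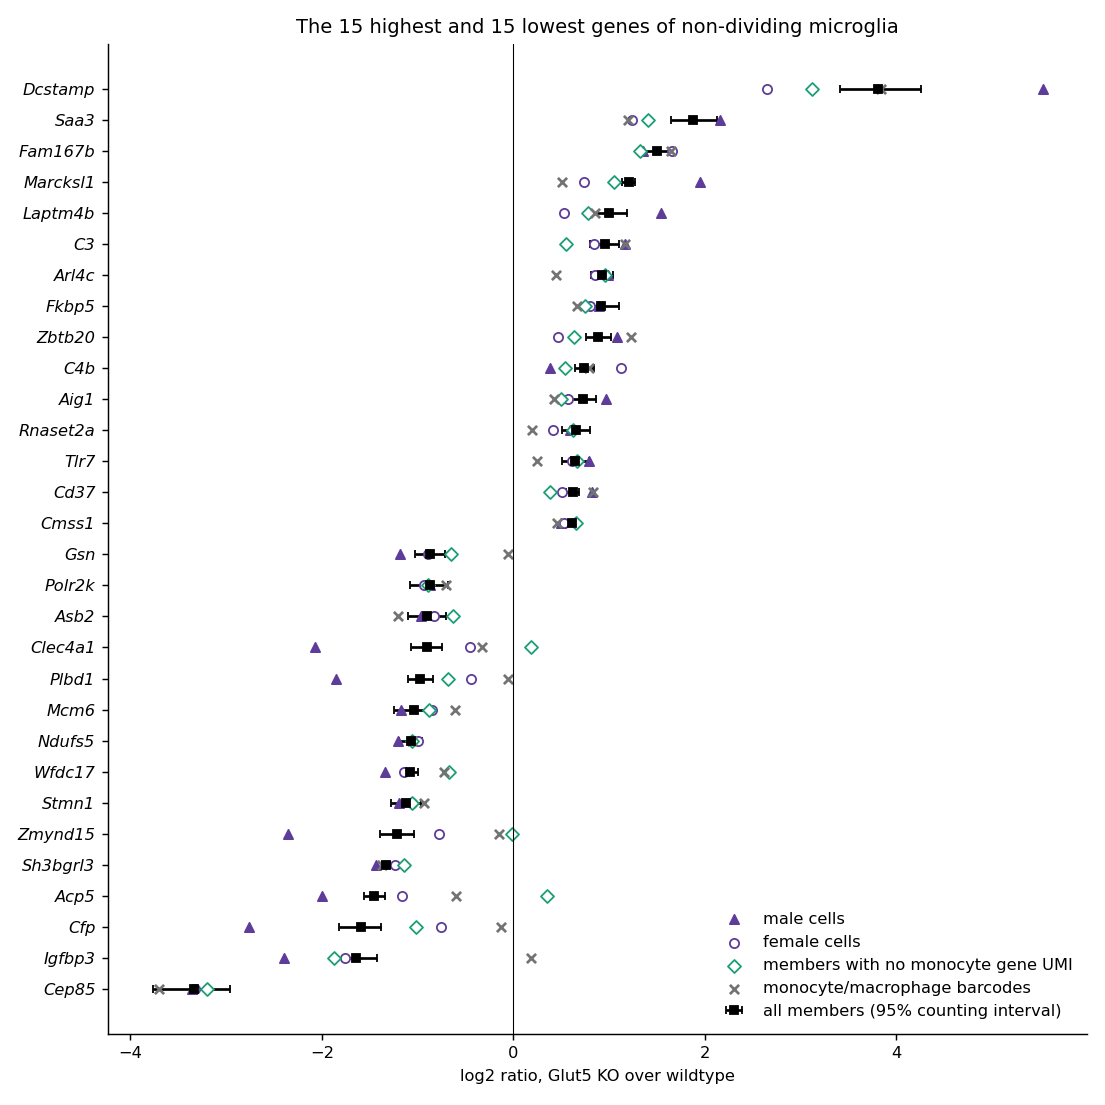
Log2 ratio of Glut5 KO over wildtype (x axis) for the 15 highest and 15 lowest genes by the naming rule (y axis), in all members (squares with 95% counting intervals), male cells, female cells, members with no monocyte gene UMI, and monocyte and macrophage barcodes. Acp5, Zmynd15 and Clec4a1 lay between −0.01 and 0.35 once members with a monocyte gene UMI were left out, and Dcstamp and Cep85 stood apart in every set, between 2.65 and 5.53 and between −3.70 and −3.20.

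Homeostatic genes leaned towards Glut5 KO, by little each. Over all 9695 genes, 41.7% were above 0, 1.73% past 1.5-fold higher and 3.76% past 1.5-fold lower. Of 20 measured homeostatic receptor genes 19 were above 0 and 0 past 1.5-fold either way, with a median log2 ratio of 0.25. The median was 0.37 in male and 0.18 in female cells, and −0.10 in monocyte and macrophage barcodes. Slco2b1 had 101 CPM in Glut5 KO and 75.6 CPM in wildtype (0.42), Ecscr stood at 0.41 and Adgrg1 at 0.41, and at the other end Il10ra, the receptor for interleukin 10, stood at −0.02. Secreted proteins and enzymes of the same state had a median of 0.22, but 0.48 in male and 0.02 in female cells. Ltc4s had 1.10 in male and −0.03 in female cells, and Ctss, the protease that trims the invariant chain, 0.48 and 0.49. Of 15 transcription factors of microglia, 14 were above 0 (median 0.19), and Sall3 was past 1.5-fold at 40.7 CPM in Glut5 KO and 24.3 CPM in wildtype (0.74, and 0.46 without members that had a monocyte gene UMI). Spi1, the gene for the lineage factor PU.1, stood at −0.16.

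Disease-associated microglia genes split within the list. Their median was 0.16 over 28 genes, with 2 at least 1.5-fold higher and 2 at least 1.5-fold lower. Gpnmb, a glycoprotein of lipid-laden macrophages, had 190 CPM in Glut5 KO and 59.2 CPM in wildtype (1.68). In male cells it had 255 and 46.8 CPM, and in female cells 79.99 and 77.6 CPM. Spp1, the secreted osteopontin, had 1854 CPM in Glut5 KO and 1178 CPM in wildtype (0.65), with 3671 and 1232 CPM in male cells and 761 and 873 CPM in female cells. The female values of both genotypes were close, and the difference between the sexes was not tested. Without members that had a monocyte gene UMI, Gpnmb stood at 0.54 and Spp1 at 0.18, both under 1.5-fold. The lysozyme gene Lyz2 had 1322 and 2047 CPM (−0.63), Lgals3, which encodes galectin-3, 346 and 520 CPM (−0.59), with the surface antigen gene Cd52 just under the limit at −0.57 (1616 and 2405 CPM). Lyz2 stood at 0.12 without members that had a monocyte gene UMI.

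Genes of oxidative metabolism mostly had ratios slightly below 0, and few passed 1.5-fold. Of 70 nuclear genes of the respiratory chain and ATP synthase, 3 were above 0 and the median was −0.27, with Ndufs5 the 1 gene past 1.5-fold. Among all 9695 genes, 41.7% were above 0, the median was −0.05 and 3.76% were past 1.5-fold lower. Ndufa12 and Ndufb8, also of complex I, stood at −0.57 and −0.49, and Uqcrh, of complex III, at 0.03. The list summed to 15853 CPM in Glut5 KO and 19113 CPM in wildtype. Its median was −0.37 in male and −0.17 in female cells, and −0.19 in monocyte and macrophage barcodes. Tricarboxylic acid cycle genes had a median of −0.21 over 20 genes, with 0 past 1.5-fold and Idh2, the mitochondrial isocitrate dehydrogenase, lowest at −0.56. Pentose phosphate genes had −0.22 over 10, again with 0 past 1.5-fold and with Tkt and Taldo1, which shuffle its sugar phosphates, at −0.40 and −0.34.

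Glycolysis did not shift as a group, at a median of −0.03 over 21 genes with none past 1.5-fold. Within it, the glucose transporter gene Slc2a1 had 113 CPM in Glut5 KO [107 to 120] and 75.9 CPM in wildtype [71.3 to 80.6], a log2 ratio of 0.58 that was 0.51 in male and 0.53 in female cells. Eno1, which encodes an enolase, stood at −0.49. Of 14 measured genes of fructose and polyol handling, 2 were lower, Slc2a5 and Akr1b8. The median was −0.10, also with Slc2a5 set at its limit of 3 counts. The fructokinase gene Khk had 42.0 CPM in Glut5 KO and 35.2 CPM in wildtype (0.25), and the transporter genes Slc2a8 and Slc2a9 stood at 0.35 and 0.37. Akr1b8 stood at 2.02 without stromal barcodes, on 29 and 78 UMIs in all. Cholesterol synthesis genes had a median of −0.33 over 16, with 5 lower, among them Fdps (21.8 CPM in Glut5 KO and 42.3 CPM in wildtype) and Sqle at −0.71. Their counts were low, and the median was −0.03 as a mean over cells and 0.13 with cells thinned to 1500 UMIs. Lipid handling stood at 0.06, with Apoe, the lipid carrier, at 20734 CPM in Glut5 KO and 15873 CPM in wildtype (0.39, with 0.77 in male and 0.08 in female cells) and 3 genes lower: the synthase gene Fasn at −0.96, Fabp3 at −0.83 and Pparg, a nuclear receptor for fatty acids, at −1.45. Pparg stood at 2.64 without members that had a monocyte gene UMI.

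**Figure D4:**
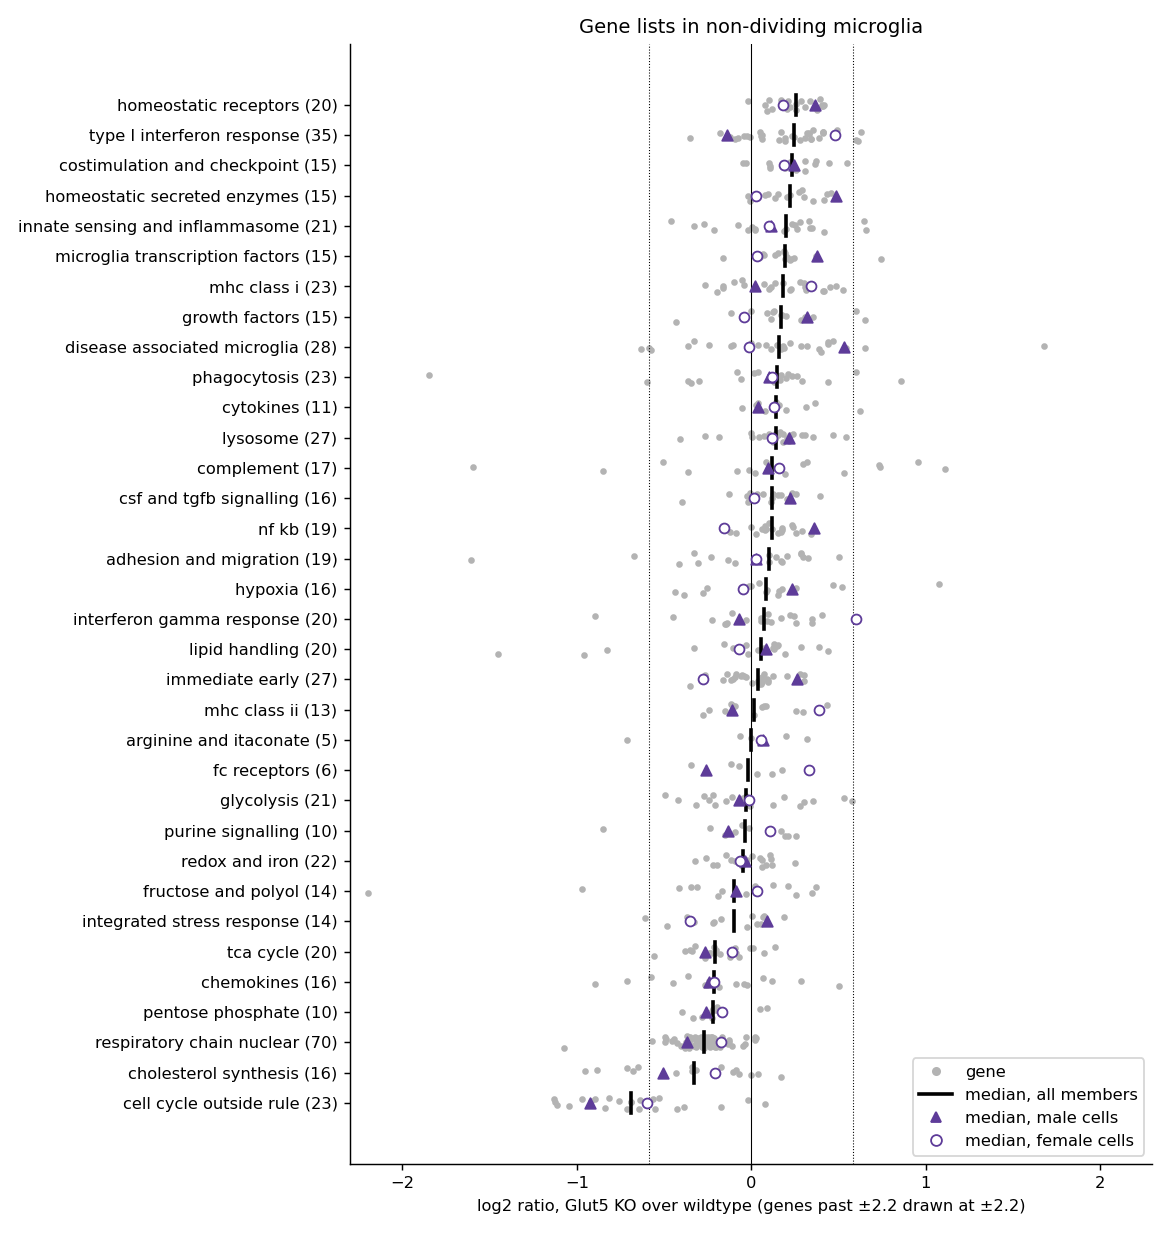
Log2 ratio of Glut5 KO over wildtype in non-dividing microglia (x axis) for 34 gene lists (y axis, number of measured genes in brackets): grey points are genes, black bars medians over all members, filled triangles and open circles the medians in male and in female cells, dotted lines 1.5-fold. Homeostatic lists lay right of 0 and the respiratory chain and cell cycle left of it, while male and female medians stood on opposite sides for both interferon lists.

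Residual division genes had the lowest median of the 34 functional lists. Of 23 measured cell cycle genes outside the rule, 15 were at least 1.5-fold lower and 0 higher in Glut5 KO. Among all 9695 genes, 3.76% were lower and 1.73% higher. The list's median was −0.69, with −0.92 in male and −0.60 in female cells. Mcm2, another helicase subunit, had 12.6 CPM in Glut5 KO and 27.7 CPM in wildtype (−1.13), and the mitotic cyclin gene Ccnb2 3.46 and 7.55 CPM (−1.11). The rule allowed 2 division UMIs, and 911 of 1136 Glut5 KO members and 1041 of 1431 wildtype members had 0. Members were thus picked by genes of the same process, and the part of that cut in these ratios was not tested. In dividing microglia the same list stood at −0.07, and in monocyte and macrophage barcodes at −0.36.

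The complement and phagocytosis lists held single genes that moved in opposite directions. The complement list had a median of 0.12 over 17 genes, with 4 higher and 2 lower. Serping1, which inhibits C1, had 24.8 CPM in Glut5 KO and 11.5 CPM in wildtype (1.11), beside C3 and C4b above and C2 at 0.73, while Cfp was lower and Cd93 stood at −0.85 (8.99 and 16.3 CPM). Serping1 came to 0.31 without members that had a monocyte gene UMI. Phagocytosis genes had 0.15 over 23. The integrin gene Itgb3 stood at 0.86 and the bridging ligand gene Gas6 at 0.60 (136 and 89.8 CPM). The scavenger receptor gene Stab1 stood at −0.60 and the mannose receptor gene Mrc1, a border macrophage marker, at −1.85 (8.30 and 30.1 CPM). The 6 measured border macrophage markers had a median of −0.78, and the 10 listed summed to 118 CPM in Glut5 KO and 202 CPM in wildtype, with 2 of 10 at 0 in Glut5 KO and 0 of 10 in wildtype. The chemokine receptor gene Ccr1 stood at −1.60, with 14.0 and 42.8 CPM.

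Interferon and antigen presentation genes had other medians in male than in female cells. The interferon-gamma response had a median of 0.07 over 20 genes, with −0.07 in male and 0.60 in female cells. Without stromal barcodes, 5 of 20 genes were above 0 in male cells and 20 of 20 in female cells. Over all 9695 genes in all members, 41.7% were above 0. The medians of those genes, with stromal barcodes, were −0.06 in male and −0.09 in female cells. The type I interferon response had 0.25 over 35 genes, with −0.14 in male and 0.48 in female cells, and without stromal barcodes 10 of 35 were above 0 in male and 34 of 35 in female cells. Slfn8, Rsad2 and Ifit3b, all interferon-induced, were the 3 genes past 1.5-fold, at 0.63, 0.61 and 0.60. MHC class II had 0.01 over 13 genes, with −0.11 in male and 0.39 in female cells, and MHC class I 0.18 over 23, with 0.02 and 0.34. In monocyte and macrophage barcodes the medians of the interferon-gamma, type I and MHC class II lists were 0.52, 0.42 and 0.54. Iigp1, an interferon-induced GTPase, had 243 CPM in Glut5 KO and 252 CPM in wildtype male cells, and 112 and 46.5 CPM in female cells. Cxcl9, a T cell chemokine induced by interferon-gamma, had 77.9 CPM in Glut5 KO and 303 CPM in wildtype male cells, and 114 and 43.9 CPM in female cells, so its direction over all members (−0.90) was that of male cells. The difference between the sexes was not tested.

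Chemokines as a list had a median of −0.21 over 16 genes, with 0 higher and 2 lower, Cxcl9 and Ccl9 (45.3 CPM in Glut5 KO and 74.5 CPM in wildtype). Ccl7, which draws monocytes, stood at −0.58, with −1.37 in male and 0.10 in female cells, and Ccl4, which draws T cells and monocytes, at 0.12. Cytokines had 0.14 over 11, with Il12b, a subunit of interleukin 12, at 0.63 over all members and at 2.27 in male and −0.10 in female cells. Innate sensing genes had 0.20 over 21, with Tlr3 and Tlr7 past 1.5-fold at 0.66 and 0.64. The medians of the other lists were 0.23 for costimulation and checkpoints, 0.17 for growth factors, 0.14 for lysosomes, 0.12 for NF-kB and for CSF and TGF-beta signalling, 0.10 for adhesion and migration, 0.09 for hypoxia, 0.04 for immediate-early genes and 0.00 for arginine and itaconate. Below 0 were Fc receptors at −0.02, purine signalling at −0.04, redox and iron at −0.05 and the integrated stress response at −0.10. Single genes past 1.5-fold among these were Egln3, an oxygen sensor, at 1.08, and, below 0, the polyamine synthase gene Srm at −0.71, the adenosine deaminase gene Ada at −0.85, Shmt2 at −0.61 and Itga9 at −0.67, besides genes named above. Itga9 stood at 0.23 without members that had a monocyte gene UMI.

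Male and female members differed within each library, a comparison added after seeing the data. Among 6511 genes with at least 100 UMIs in each library, and without stromal barcodes, 46 (0.706%) were at least 1.5-fold higher and 23 (0.353%) at least 1.5-fold lower in male than in female members in both libraries. The heat shock genes Hspa1a and Hspa1b, whose reads may be shared since they are near copies, led. Hspa1b had 290 CPM in male and 41.3 CPM in female Glut5 KO members, and 228 and 61.9 CPM in male and female wildtype members. Interferon-gamma targets followed, with 8 of 19 measured genes higher in male members in both libraries and medians of 0.46 in Glut5 KO and 1.14 in wildtype. Gbp2, a guanylate-binding GTPase, had 378 CPM in male and 136 CPM in female Glut5 KO members, and 382 and 81.3 CPM in wildtype. MHC class II had 6 of 12 genes higher, with medians of 0.79 in Glut5 KO and 1.10 in wildtype. H2-Eb1, an MHC class II chain, had 2304 CPM in male and 1168 CPM in female Glut5 KO members, and 2494 and 576 CPM in wildtype.

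Chemokines were the list with most genes lower in male members, 5 of 15 in both libraries, with medians of −0.63 in Glut5 KO and 0.04 in wildtype. Cxcl13, the chemokine of B cells, had 167 CPM in male and 605 CPM in female Glut5 KO members, and 170 and 855 CPM in wildtype. Ccl12 had 855 and 1462 CPM in Glut5 KO and 920 and 1532 CPM in wildtype, and Ccl3 and Ccl5 had log2 ratios of −0.69 and −0.67 in Glut5 KO and −1.37 and −1.04 in wildtype. The receptor gene Fpr1, which senses formyl peptides, stood at −1.98 and −0.94, and Wfdc17 at −0.98 and −0.88. Homeostatic receptors had medians of −0.05 in Glut5 KO and −0.36 in wildtype, with no gene past 1.5-fold in both libraries. These sexes may be single animals, so sex, animal and tumour cannot be told apart.

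Gene lists differed in how widely members spread. With each cell thinned to 1500 UMIs, MHC class II genes took a median of 29 UMIs in 1027 Glut5 KO members (10th to 90th percentile 12 to 86.4) and 23 UMIs in 1356 wildtype members (9 to 78). Homeostatic receptors took 10 UMIs in Glut5 KO (4 to 19) and 8 in wildtype (3 to 17), and MHC class I genes 27 in Glut5 KO (14 to 41) and 22.5 in wildtype (12 to 38). In male cells the MHC class II median was 34 in Glut5 KO and 43 in wildtype, and in female cells 29 and 17. Wildtype female members had the lowest median of the 4 groups and a 90th percentile of 32.1 UMIs. Respiratory chain genes took 21 UMIs in Glut5 KO and 29 in wildtype male cells, and 21 and 24 in female cells. Type I interferon genes took 11 and 14 UMIs in male cells and 14 and 11 in female cells.

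**Figure D5:**
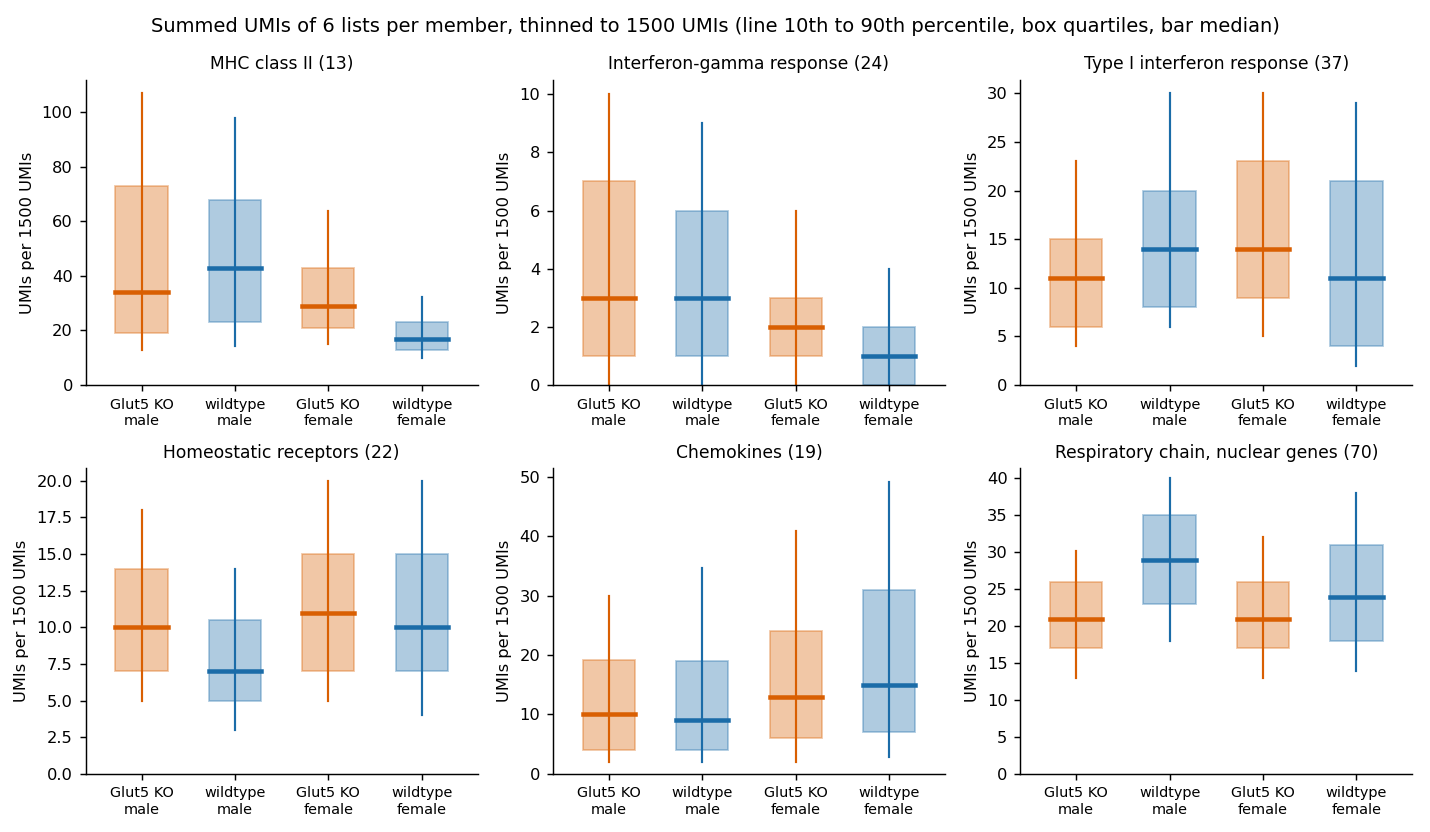
UMIs of 6 gene lists per member after thinning to 1500 UMIs (y axis) in male and female members of each library (x axis), Glut5 KO orange and wildtype blue; lines run from the 10th to the 90th percentile, boxes show quartiles and thick bars medians over cells, which are not replicates. MHC class II was lowest in wildtype female members, at a median of 17 UMIs, and homeostatic receptors were lowest in wildtype male members, at 7.

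Pairs of lists were also compared across thinned cells in each library. Disease-associated and lysosomal genes, which have 5 genes in common, had a Spearman correlation over cells of 0.75 in Glut5 KO and 0.66 in wildtype. Chemokines and cytokines had 0.41 and 0.37, and the interferon-gamma response and MHC class II 0.39 and 0.34. Homeostatic receptors ran against monocyte and macrophage markers, at −0.38 in both libraries, and had 0.05 and 0.03 with the disease-associated list. Some pairs differed between the libraries: homeostatic receptors with chemokines had −0.02 in Glut5 KO and 0.20 in wildtype, disease-associated genes with MHC class II 0.05 and 0.23, and the interferon-gamma response with monocyte and macrophage markers 0.10 and −0.08. All lists of a cell share its 1500 UMIs and its library, so these are descriptions.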

How the data were processed

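UMI counts per gene and barcode were deposited by the authors as matrices of 32285 genes, not normalized; the file headers name Cell Ranger 7.0.1, and the submitters' processing notes name Cell Ranger 3.1.0 and mm10. Members were found in both matrices by the rule in the report, and the UMIs of each gene were added up over the members of a library and scaled to CPM. Log2 ratios of Glut5 KO over wildtype had 0.5 added to each count. No test was run. Levels have exact Poisson, shares Clopper-Pearson and ratios conditional exact binomial 95% intervals. For Slc2a5 in Glut5 KO members a limit of 3 counts is also given. PCR copies were removed by UMI, and intervals still cover counting error only.

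The members, the 50 gene lists and the tests were chosen with earlier results of these data known. Clec7a, Mx1 and Mx2 are not used here, and some genes the naming rule picks are not reported here. Lists are given as medians of genes with at least 100 UMIs. Named genes were the 6 markers and Slc2a5; the 15 highest and lowest ratios among genes with at least 200 UMIs and 50 CPM in 1 library that were the same way in both sexes by a ratio of at least 5 to 4, without predicted, ribosomal, sex-linked, receptor or immunoglobulin genes and markers of other cells; up to 3 at each end of a list; and 25 highest and 10 lowest against other barcodes. Genes of the comparison of sexes were chosen after their values were seen, as were C2, Iigp1 and other sex-specific values. Doublets were left in; Scrublet scores (scanpy 1.11.5) and TMM factors (edgeR 4.0.16) served alternatives. Python 3.11.15 was used, and the ratio, its call and the thinning were tested on simulated data. Chromosome positions are from the GENCODE annotation of GRCm38.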

Additional observations from a re-analysis of the deposited data

Results flagged for a closer look

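Some gene lists ran in opposite directions in male and in female members, by at least 0.5 between the medians of log2 Glut5 KO over wildtype. The interferon-gamma response had −0.070 in male and 0.60 in female cells, and the type I interferon response −0.14 and 0.48. Fc receptors had −0.26 in male and 0.33 in female cells. Disease-associated microglia genes went the other way, with 0.53 in male and −0.011 in female cells, as did NF-kB genes, with 0.36 and −0.16, and immediate-early genes, with 0.26 and −0.28. The differences were not tested, since each sex had 1 library per genotype, and sex and animal cannot be told apart.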

How the results depend on the processing

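The alternatives without stromal barcodes and without members that had a monocyte gene UMI, and those of the Slc2a5 level, were chosen after seeing the data. The log2 ratio of the members' shares was −0.41, and −0.28 after thinning to 2000 UMIs, −0.17 in male cells and −0.29 without members that had a monocyte gene UMI; it kept its direction under every setting run. Wildtype Slc2a5 was 20.03 CPM, and 25.2 after thinning to 2000 UMIs, 23.5 in female cells, 15.3 in male cells and 32.5 without members that had a monocyte gene UMI. The 168 higher genes became 269 in male cells, 100 without members that had a monocyte gene UMI, 307 as a mean over cells, 101 with members thinned to 1500 UMIs, 513 with at least 20 UMIs and 2639 with at least 1 UMI. The 365 lower genes became 151 with members thinned, 944 with at least 20 UMIs and 3419 with at least 1 UMI. The last settings test more genes with few counts, and thinning leaves fewer counts. TMM scaling and centring shifted every ratio by 0.04 and 0.05.

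Directions turned for some lists and genes, and the cause was not tested. With members thinned, cholesterol synthesis had 0.13. Without stromal barcodes, monocyte and macrophage markers had 0.19, Igfbp3 0.038 and Akr1b8 2.02. Male cells gave 0.090 for oligodendrocyte markers and 1.51 for Akr1b8. Female cells gave −0.021 for astrocyte markers, −0.20 for Spp1, 1.37 for Cxcl9 and −0.10 for Il12b. Without members that had a monocyte gene UMI, Acp5 had 0.35, Clec4a1 0.18, Lyz2 0.12, Pparg 2.64 and Itga9 0.23. No paired analysis was possible because each genotype had 1 library.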
